A study of Homo sapiens with 6 samples.

Results

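The brake and the starter of the G1 phase were followed at the RNA level in MDA-MB 231 cells, a human triple-negative breast cancer cell line of the claudin-low subtype. The 9 genes described are 6 CDK inhibitors (CDKN1A, CDKN1B, CDKN1C, CDKN2B, CDKN2C and CDKN2D) and the 3 D cyclins (CCND1, CCND2 and CCND3), out of 24462 gene symbols in the count tables. They were taken by gene symbol, and the set was chosen from these data because CDKN1C had been seen to be higher with miR-200a and lower again with ELK3. The values of CDKN1C in all 3 comparisons are therefore given as a description, without a test.

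In the cell cycle, D cyclins bind CDK4 and CDK6 and start the phosphorylation of the RB protein, which releases E2F factors and with them the genes for DNA replication. The INK4 inhibitors among the members (CDKN2B, CDKN2C, CDKN2D) bind CDK4 and CDK6 and keep them from the D cyclins. The CIP/KIP inhibitors (CDKN1A or p21, CDKN1B or p27, CDKN1C or p57) act chiefly on cyclin and CDK2 complexes, and also take part in the assembly of D cyclin complexes. CDKN1C is an imprinted gene of chromosome 11p15 and is known as a restraint on growth.

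Of the 3 groups, the NC mimic cells received a negative control mimic, the miR-200a cells received a miR-200a mimic (100 nM), and the cells labelled miR-200a plus ELK3 received the same mimic (100 nM) together with an expression plasmid for the transcription factor ELK3 (30 ng). The libraries of the latter are called plasmid-labelled. All cells were of this cell line and were harvested 48 h after transfection, with 2 libraries in each group. No group is labelled as having received the NC mimic with the plasmid, or an empty plasmid, so that an effect of the plasmid's load and an effect of ELK3 cannot be told apart. QuantSeq libraries, which read polyadenylated RNA close to its 3′ end, held between 3055915 and 4868004 counts. Values are given as CPM, read counts brought to the same library size by TMM scaling, as mean ± SD over n = 2 libraries, and p-values are those of edgeR's quasi-likelihood test, adjusted over all 12650 genes tested. Nothing in the sources used here says whether the libraries of a group came from separate cultures, so p-values measure only the spread between these libraries, which may be technical.

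ELK3 itself was at 138 and 166 CPM in the NC mimic libraries and 102 and 103 CPM in the miR-200a libraries. It was at 96.2 and 79.2 CPM in those labelled as having the plasmid. ELK3 was thus lowest in the libraries labelled as having the plasmid, lower than in the NC mimic (log2 fold change -0.79, adjusted p = 0.0117), although that call was lost without either NC mimic library. The differences of miR-200a from the NC mimic (-0.56, adjusted p = 0.232) and of the plasmid-labelled libraries from miR-200a (-0.23, adjusted p = 0.354) did not pass. The paper describes its Flag-tagged ELK3 plasmid as holding the coding region without an intact 3′UTR. The treatment labels name the plasmid with Hygro(+), and whether these are the same construct is not said. A tag near the natural 3′ end need not register RNA from a plasmid without that 3′UTR. The ELK3 counts therefore cannot check the label of the plasmid. Of the cell line's markers, the claudin-low genes VIM, CD44, ZEB1, AXL and SPARC together reached 2303 to 3669 CPM. Most of that sum was VIM (956 to 2463 CPM) and AXL (756 to 1036 CPM), while SPARC had 0 to 8 counts in a library and was not tested. The 8 luminal genes together reached 104 to 164 CPM, with the oestrogen receptor gene ESR1 at 0 in all 6 libraries. Tag counts do not give levels that can be compared between genes, so these sums are read between libraries only. The luminal sum moved with the mimic, at 110 and 104 CPM in the NC mimic, 164 and 164 CPM with miR-200a and 126 and 125 CPM with miR-200a plus ELK3. No luminal gene passed in the main fit (edgeR, TMM scaling, low genes filtered, all 6 libraries). With miR-200a against the NC mimic 3 of 5 tested had an unadjusted p under 0.05 there, and DESeq2 called 1. With DESeq2 size factors or upper-quartile normalization in edgeR, 1 of 5 was called lower with miR-200a plus ELK3 against miR-200a. Without the filter on low counts, 1 of 7 was called higher with miR-200a. In that fit 1 was also called lower with the plasmid against miR-200a, and 1 higher against the NC mimic. Of the claudin-low genes, CD44 fell in the plasmid-labelled libraries (-0.61 from miR-200a, adjusted p = 0.0151, and -0.58 from the NC mimic, adjusted p = 0.0181). The part of these markers in the results was not tested. The 2 plasmid-labelled libraries differed more from each other than those of the other groups did: the median gene differed between them by 0.32 on the log2 scale, against 0.18 in the NC mimic and 0.15 with miR-200a.

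The transfected miRNA reads, in RefSeq (GRCh38.p14, chr1:1167916-1167937, plus strand), as shown next, with its seed (bases 2 to 8) in capitals. The other lines are the places where its complement, CAGTGTT in capitals, occurs in a 3′UTR of the members and of ELK3 (GENCODE 29, GRCh38, mRNA strand, 5′ to 3′); they are shown because miRNAs are known to act mainly through such complements of the seed.
hsa-miR-200a-3p: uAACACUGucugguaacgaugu
CDKN1A: gggagcccgtctCAGTGTTgagccttttcc
CCND2: gtcttatctgttCAGTGTTaagtgatttaa
ELK3: tgtctgcttaatCAGTGTTaaactgctatg

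The CDKN1A match lies in exon 3 (chr6:36686512-36686518), 821 bases before the end of the transcript, and the CCND2 match in exon 5 (chr12:4305232-4305238), 112 bases before the end. The ELK3 match is in exon 5 (chr12:96269668-96269674). The matches of CCND2 and ELK3 are followed by an A, that of CDKN1A is not. Among the tested genes with a 3′UTR, 5.84% had a match followed by an A. CCND2 had too few counts to be tested. The other 7 members, CDKN1C and CCND1 among them, had no such match in the 3′UTR examined, and 21.8% of the tested genes with a 3′UTR had at least 1. By itself a match describes the letters and does not say whether the site is in use. No match says only that these letters are not in this stretch.

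Across the groups, CDKN1C stood highest with miR-200a alone, while in the plasmid-labelled libraries CCND1 rose and CDKN2D fell. Of the 9 members, 7 had enough counts to be tested. In the counts of genes below, a gene changed, rose or fell only where its adjusted p was under 0.05. Leaving out CDKN1C, 0 of 6 changed with miR-200a against the NC mimic (also 0 by DESeq2 and by limma), and 2 of 6 changed in each comparison of the plasmid-labelled libraries, CCND1 upwards and CDKN2D downwards in both. Among all genes, the test called 0.269% with miR-200a against the NC mimic, 12.9% with miR-200a plus ELK3 against miR-200a, and 12.9% with miR-200a plus ELK3 against the NC mimic, so that the single calls of the members have to be read against a broad background of change in the latter comparisons. Both of these share the libraries with the plasmid, so that their values for a member are not independent of each other. At an unadjusted p under 0.05 the counts were 1, 4 and 4 of 6, beside 9.24%, 30.6% and 30.6% of all genes.

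**Figure D1:**
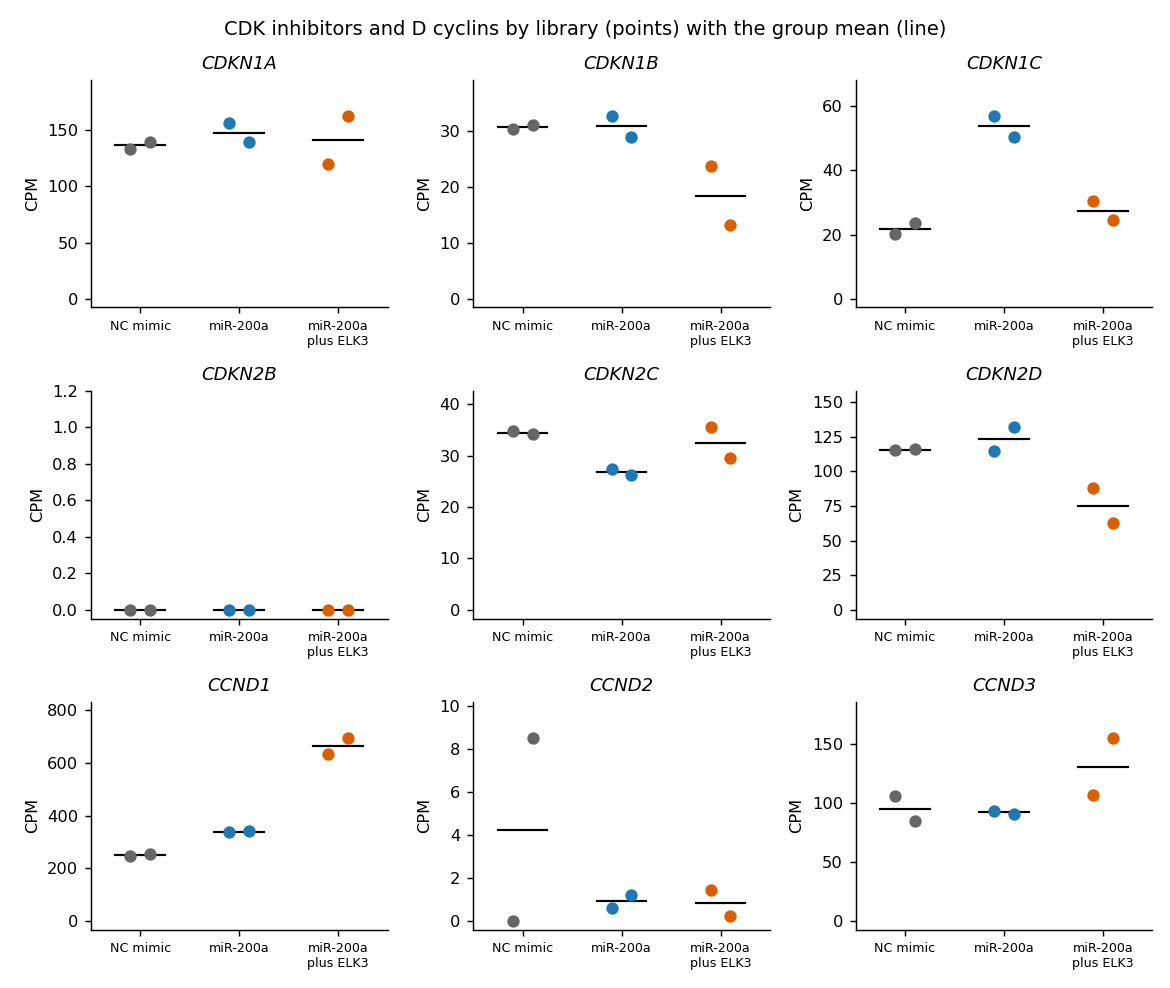
CPM of each of the 9 members (y axis, starting at 0) in the 6 libraries (points) by group, with the mean of the 2 libraries as a line. CDKN1C is highest in both miR-200a libraries (56.9 and 50.5 CPM), CCND1 highest in both plasmid-labelled libraries (633 and 693 CPM), and CDKN2B is at 0 throughout.

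Among the CIP/KIP inhibitors, CDKN1C (chr11:2883213-2885773, minus strand) had 91 and 72 counts in the NC mimic, 274 and 248 under miR-200a, and 128 and 105 with miR-200a plus ELK3. In CPM these were 20.3 and 23.5, then 56.9 and 50.5, then 30.3 and 24.7. No pair of groups overlapped, and the lowest miR-200a library stood well above the highest of the other 4. The means were 21.9 ± 2.28, 53.7 ± 4.49 and 27.5 ± 3.99 CPM (SD, n = 2 each). Relative to the NC mimic, CDKN1C was thus 2.47-fold higher under miR-200a (log2 fold change 1.30, SE 0.19), and relative to miR-200a it was 1.95-fold lower in the plasmid-labelled libraries (-0.97, SE 0.19). In bulk RNA, a change in the number of cells with the transcript and a change in its level per cell cannot be told apart. In the plasmid-labelled libraries the level lay 1.26-fold above that of the NC mimic (0.34, SE 0.20), a difference that is described here and was not tested.

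CDKN1A (p21, chr6:36676460-36687339), the inhibitor induced by p53 in response to damage, was at 134 and 139 CPM in the NC mimic, 156 and 139 CPM under miR-200a, and 120 and 162 CPM with miR-200a plus ELK3. The plasmid-labelled libraries span all the others, and the NC mimic and miR-200a groups touched at 139 CPM. The log2 fold changes were 0.12, -0.06 and 0.05 (SE 0.16 each), with adjusted p of 0.896 for miR-200a against the NC mimic, 0.814 for miR-200a plus ELK3 against miR-200a and 0.861 for miR-200a plus ELK3 against the NC mimic. What a comparison with the plasmid would show depended on the library kept: without replicate 2 the level was lower than with miR-200a (-0.34, adjusted p = 0.0248), and without replicate 1 it was higher than with the NC mimic (0.27, adjusted p = 0.0431). The value against the NC mimic also changed its sign under upper-quartile normalization and under limma.

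CDKN1B (p27, chr12:12715058-12722371), an inhibitor that accumulates in resting cells and is removed by SKP2, was at 30.3 and 31.0 CPM in the NC mimic, 32.6 and 28.9 CPM under miR-200a, and 23.7 and 13.2 CPM with miR-200a plus ELK3. Both plasmid-labelled libraries were below the other 4, but they were far apart from each other. The fitted differences of -0.74 (SE 0.26, adjusted p = 0.0878) from miR-200a and -0.73 (SE 0.27, adjusted p = 0.0943) from the NC mimic did not pass the threshold. They passed it without replicate 1 of the plasmid-labelled libraries, at -1.22 (adjusted p = 0.000123) and -1.19 (adjusted p = 0.000209), and without the filter on low counts (adjusted p = 0.0174 and 0.0268). With miR-200a alone the difference from the NC mimic was 0.01 (SE 0.25, adjusted p = 0.997).

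Within the CIP/KIP family, neither CDKN1A nor CDKN1B was called in any comparison. The counts of CDKN1C for each count of CDKN1A in the same library, a ratio that needs no scaling between libraries, were 0.152 and 0.169 in the NC mimic, 0.364 and 0.363 under miR-200a, and 0.252 and 0.152 with miR-200a plus ELK3. Under miR-200a this ratio was far above the controls, and the plasmid-labelled libraries ranged from the control level to a point between the other groups. For each count of CDKN1B, the counts of CDKN1C were 0.669 and 0.758, then 1.75 and 1.75, then 1.28 and 1.88, so that this ratio, with CDKN1B also lower, stayed above the controls in the plasmid-labelled libraries and overlapped with that of miR-200a. Both ratios hold the values of CDKN1C by which the set was chosen and are a description only. Such ratios are read between libraries only, since tag counts do not give levels that can be set against each other between genes.

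Of the INK4 inhibitors, CDKN2D (p19, chr19:10566462-10569059, minus strand) was the member that fell. Its counts were 517 and 357 in the NC mimic, 551 and 647 under miR-200a, and 371 and 266 with miR-200a plus ELK3, or 115 and 116 CPM, 114 and 132 CPM, and 87.9 and 62.5 CPM. NC mimic and miR-200a overlapped, and both plasmid-labelled libraries lay below all the others. With miR-200a plus ELK3, CDKN2D was 1.64-fold lower than with miR-200a (-0.71, SE 0.17, adjusted p = 0.0268) and 1.54-fold lower than with the NC mimic (-0.62, SE 0.18, adjusted p = 0.0432), beside 5.91% and 5.95% of all genes called lower in these comparisons. The fall was close to the threshold. The call was lost when any NC mimic or miR-200a library was left out, with adjusted p from 0.0762 to 0.243 against miR-200a and from 0.0986 to 0.233 against the NC mimic, when only the compared groups were fitted (0.0767 and 0.0995), and, for the NC mimic, when a block for the replicate number was added (0.0653).

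CDKN2C (p18, chr1:50960745-50974633) was at 34.7 and 34.3 CPM in the NC mimic, 27.4 and 26.3 CPM under miR-200a, and 35.5 and 29.6 CPM with miR-200a plus ELK3. The miR-200a libraries were below the other 4, where CDKN1C was highest, but neither the difference from the NC mimic (-0.36, SE 0.19, adjusted p = 0.613) nor that from the plasmid-labelled libraries (0.28, SE 0.18, adjusted p = 0.342) passed the test. CDKN2B (p15, chr9:22002903-22009363), the INK4 inhibitor that TGF-beta induces in epithelial cells, had 0 counts in all 6 libraries, which allows up to 0.611 to 0.979 CPM, the worth of 3 counts in a library. This limit covers counting error only.

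Among the D cyclins, CCND1 (cyclin D1, chr11:69641087-69654474) had 1109 and 784 counts in the NC mimic, 1627 and 1668 under miR-200a, and 2671 and 2949 with miR-200a plus ELK3. As CPM, the libraries were at 247 and 256, at 338 and 340, and at 633 and 693. The 3 groups stood apart in this order, with each pair of libraries close together. The rise in the plasmid-labelled libraries was 1.96-fold over miR-200a (0.97, SE 0.11, adjusted p = 0.00181) and 2.64-fold over the NC mimic (1.40, SE 0.12, adjusted p = 0.00019), where 7.03% and 6.92% of all genes were called higher. Against the NC mimic it was called under all 15 alternatives. Against miR-200a it was not called when miR-200a replicate 1 (adjusted p = 0.0732) or replicate 2 (adjusted p = 0.0682) was left out, with nearly the same fold (0.96 and 0.97).

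With miR-200a alone, CCND1 was 0.43 above the NC mimic on the log2 scale (SE 0.11, adjusted p = 0.213), which did not pass the test. This comparison called 0.213% of all genes higher and 0.0553% lower. CCND1 was among the 1169 genes whose unadjusted p by edgeR was under 0.05. When the spread was estimated without the plasmid-labelled libraries, CCND1 passed (adjusted p = 2.62e-05), and it also passed without replicate 1 (1.54e-05) or replicate 2 (2.2e-05) of them. In the annotation the 3′ end of CCND1 overlaps that of LTO1 (ORAOV1 in the count tables) on the opposite strand, and the use of strand in counting is not given in the sources used here. ORAOV1 was at 31.6 and 23.5 CPM, 28.9 and 29.7 CPM, and 43.6 and 29.4 CPM in the same order of libraries.

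CCND3 (cyclin D3, chr6:41934933-42050357, minus strand) was at 106 and 84.8 CPM in the NC mimic, 93.4 and 90.5 CPM under miR-200a, and 106 and 155 CPM with miR-200a plus ELK3. The plasmid-labelled libraries were the highest, although replicate 1 exceeded the upper NC mimic library by less than the NC mimic libraries differed. The differences of 0.50 (SE 0.19, adjusted p = 0.102) from miR-200a and 0.45 (SE 0.19, adjusted p = 0.138) from the NC mimic did not pass the threshold. Without replicate 1 of the plasmid-labelled libraries they passed it (adjusted p = 4.9e-06 and 1.81e-05). CCND2 (cyclin D2, chr12:4273772-4305350) had too few counts to be tested: 0 and 26 in the NC mimic, 3 and 6 under miR-200a, and 6 and 1 with miR-200a plus ELK3. No library other than NC mimic replicate 2, the shallower of its pair, had over 6 counts, and the controls span all the others. Without the filter on low counts CCND2 was called against the NC mimic for the plasmid-labelled libraries, with 0 counts in the other control library.

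**Figure D2:**
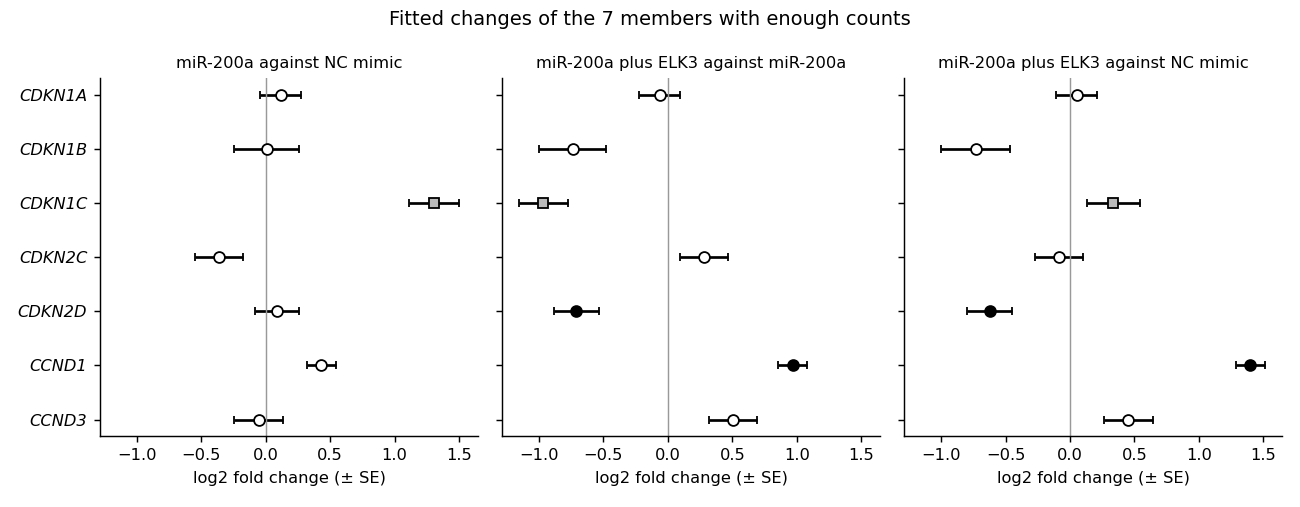
Log2 fold change with its standard error (x axis) of the 7 members with enough counts in the 3 comparisons. Filled circles passed an adjusted p of 0.05, open circles did not, and grey squares mark CDKN1C, for which no test is given. CCND1 lies at 0.97 and 1.40 and CDKN2D at -0.71 and -0.62 in the comparisons of the plasmid-labelled libraries.

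The relation of the accelerator to the brakes can be read inside each library, free of any scaling. Counts of CCND1 for each count of CDKN1C were 12.2 and 10.9 in the NC mimic, 5.94 and 6.73 under miR-200a, and 20.9 and 28.1 with miR-200a plus ELK3. These ratios to CDKN1C hold the values by which the set was chosen, so that their order between groups is a description only. CCND1 itself was not lower with miR-200a. For each count of CDKN2D, CCND1 had 2.15 and 2.20 counts, then 2.95 and 2.58, then 7.20 and 11.1. For each count of CDKN1B the values were 8.15 and 8.25, then 10.4 and 11.7, then 26.7 and 52.7. Against both of these inhibitors CCND1 stood highest in the plasmid-labelled libraries and lowest in the controls. For each count of CCND3, the values were 2.34 and 3.02, then 3.62 and 3.76, then 5.95 and 4.48, again without overlap. The ratios were not tested, and each of them holds the rise of CCND1 itself. Those to CDKN2D and CDKN1B also hold the lower values of these inhibitors in the plasmid-labelled libraries. Ratios of CCND1 to CDKN1A and CDKN2C were not taken.

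**Figure D3:**
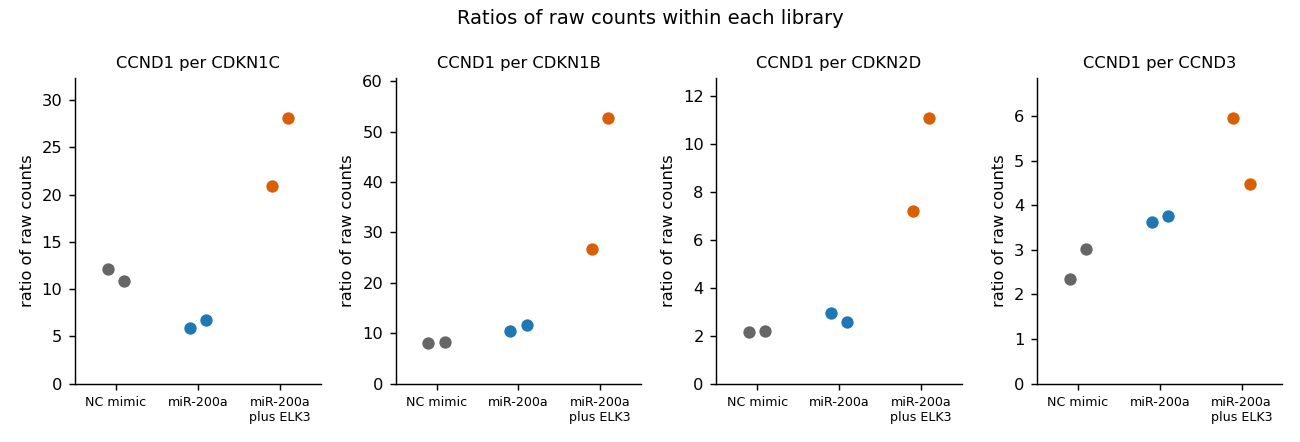
Raw counts of CCND1 divided by those of CDKN1C, CDKN1B, CDKN2D and CCND3 in the same library (y axis, a ratio of counts starting at 0), by group. The ratio to CDKN1C (5.94 and 6.73 with miR-200a, 12.2 and 10.9 in the controls) holds the values by which the set was chosen. In the plasmid-labelled libraries all 4 ratios are above those of the other groups.

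The partners of these proteins gave a mixed picture. Of 12 tested kinases and cyclins of G1 and S phase, 2 rose and 0 fell with miR-200a plus ELK3 against miR-200a, where 12.9% of all genes were called: CDC25A, the phosphatase that activates CDK2 (20.8 and 23.2 to 58.0 and 60.9 CPM, log2 fold change 1.43, SE 0.18, adjusted p = 0.00236), and cyclin E1, CCNE1 (6.44 and 8.56 to 21.1 and 23.3 CPM, 1.56, SE 0.26, adjusted p = 0.00658). CCNE1 had 81 and 47 counts in the controls and 31 and 42 with miR-200a, a difference of -1.16 (adjusted p = 0.132), and against the NC mimic its level in the plasmid-labelled libraries differed by 0.40 (adjusted p = 0.294). Against the NC mimic, CDC25A (1.10) and CDK6 (0.55), the D cyclins' own kinase, rose. CCNH, the cyclin of the CDK-activating kinase, fell from 41.2 and 48.6 CPM to 26.5 and 10.1 CPM (-1.29, adjusted p = 0.034). That makes 3 of 12 called against the NC mimic, beside 12.9% of all genes. The plasmid-labelled libraries were far apart for CCNH: its difference was -2.12 without replicate 1 and -0.77 without replicate 2, and its call was lost when any NC mimic or miR-200a library was left out. CDK4 did not pass in any comparison (0.05, 0.17 and 0.22), nor did CDK2 (-0.07, -0.15 and -0.21). The median of the list was 0.22 against miR-200a and 0.13 against the NC mimic, beside 0.02 and 0.01 for all genes.

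Of 13 genes for the RB family and E2F factors, E2F1, an activator of S phase genes, rose in the plasmid-labelled libraries by 0.71 over miR-200a (adjusted p = 0.017) and 0.59 over the NC mimic (adjusted p = 0.0327), whereas E2F7, a repressor of E2F targets, fell by 0.74 (adjusted p = 0.0419) and 1.03 (adjusted p = 0.0129). TFDP2, a dimer partner of E2F factors, fell by 0.53 against the NC mimic (adjusted p = 0.0301). RB1 was at 107 and 106 CPM, 83.7 and 82.7 CPM, and 94.7 and 35.7 CPM, and passed in no comparison. That makes 2 of 13 called in the first and 3 of 13 in the second of these comparisons, beside 12.9% of all genes in either, and the list's median was 0.37 and 0.11. With only the compared groups fitted, 0 and 1 of 13 were called.

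Of 15 genes for DNA replication and proliferation, which lie downstream of E2F, 8 rose and 0 fell with miR-200a plus ELK3 against miR-200a, where 7.03% of all genes were called higher. The median of the list was 0.67, and all 15 fitted differences were above 0. MCM3, of the replicative helicase, went from 110 and 116 CPM to 209 and 230 CPM (0.96, SE 0.13, adjusted p = 0.00288), CDC6, which loads that helicase, from 33.4 and 28.9 CPM to 66.1 and 67.7 CPM (1.10, SE 0.18, adjusted p = 0.00606), and RRM2, of ribonucleotide reductase, from 147 and 153 CPM to 261 and 235 CPM (0.73, SE 0.12, adjusted p = 0.00747). Against the NC mimic 7 of 15 rose, beside 6.92% of all genes, and 0 fell, with a median of 0.47. With only the compared groups fitted this count was 2 of 15, and it was 0 of 15 without either NC mimic library. With miR-200a alone 0 of 15 passed by edgeR, with 2 at an unadjusted p under 0.05 and a median of -0.09. The calls against miR-200a were all lost when either miR-200a library was left out, although the medians of the list were then 0.68 and 0.62.

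Of 19 tested genes for the turnover of CDK inhibitors and D cyclins, CUL1, the scaffold of the SCF ubiquitin ligases, rose in both comparisons of the plasmid-labelled libraries (0.64, adjusted p = 0.0181, and 0.69, adjusted p = 0.0141). DTL, which with CUL4 removes p21 in S phase, rose against miR-200a (0.64, adjusted p = 0.0361). SKP2, the receptor for p27, rose against the NC mimic (0.68, adjusted p = 0.0386), where CUL4B fell (-0.58, adjusted p = 0.0431). In all, 2 of 19 passed in the first and 3 of 19 in the second comparison, a share near the 12.9% of all genes, and 0 of 19 passed in either when only the compared groups were fitted.

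Of 25 tested transcriptional regulators known to act on these genes, 1 rose and 8 fell with miR-200a plus ELK3 against miR-200a, and 0 rose and 5 fell against the NC mimic, beside 5.91% and 5.95% of all genes called lower. With only the compared groups fitted, 4 and 2 of 25 were called lower, and none higher. EGR1, an immediate-early factor, was the only gene of these lists that passed with miR-200a alone in the fit of all 6 libraries: it went from 849 and 854 CPM in the controls to 491 and 520 CPM (-0.75, SE 0.11, adjusted p = 0.0289), and this call was lost without any 1 of the NC mimic and miR-200a libraries and under the replicate block, 5 of 15 alternatives. In the plasmid-labelled libraries EGR1 was at 215 and 211 CPM (-1.25 from miR-200a, adjusted p = 0.000389, and against the NC mimic adjusted p = 2.72e-05), below all others, and these calls held under all 15 alternatives. HES1, the Notch target that represses CDKN1B and CDKN1C in some tissues, was at 2093 and 2055 CPM, at 1585 and 1567 CPM, and at 845 and 453 CPM (-1.28, adjusted p = 0.00803, and -1.68, adjusted p = 0.00229, for the plasmid-labelled libraries). KLF6, an activator of CDKN1A, fell by 0.80 (adjusted p = 0.00628) and 0.63 (adjusted p = 0.0144), while CDKN1A did not pass.

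**Figure D4:**
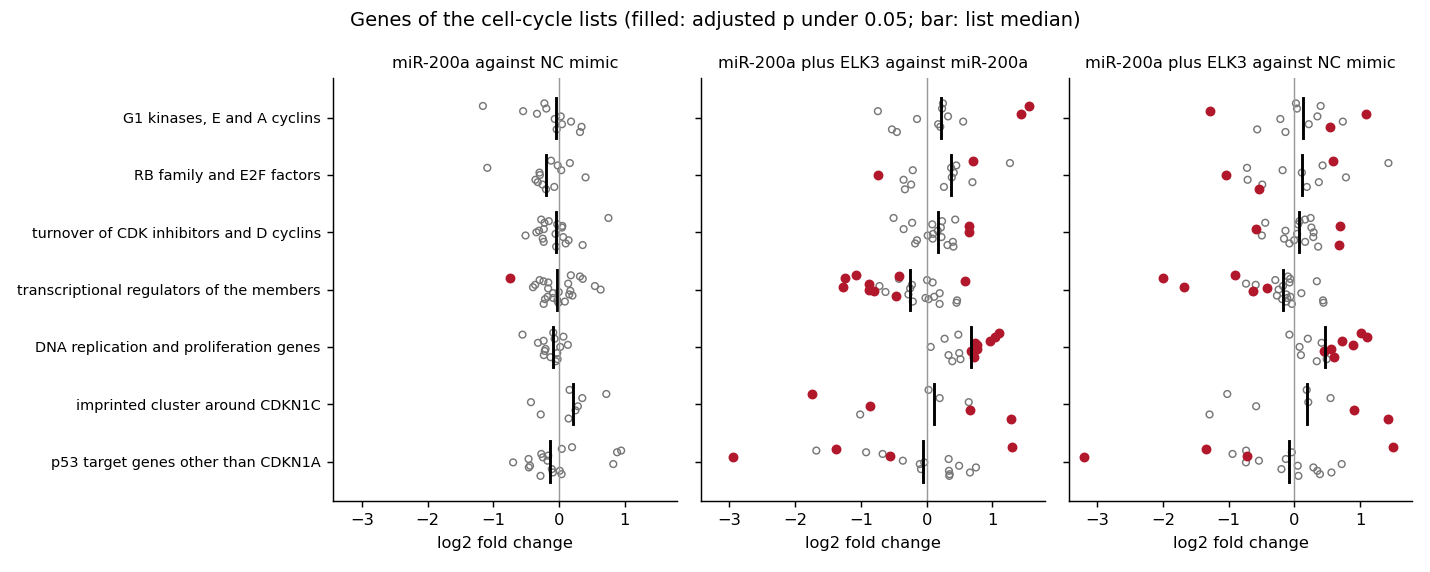
Log2 fold change (x axis) of each tested gene of 7 lists (rows) in the 3 comparisons, with filled points for an adjusted p under 0.05 and a bar at the median of the list. In the middle panel all 15 DNA replication and proliferation genes lie above 0 with a median of 0.67, while in the left panel, from the fit of all 6 libraries, EGR1 is the only filled point.

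CDKN1C lies in an imprinted cluster on chromosome 11, and its neighbours are given beside it. Of 14 genes of this cluster 8 were tested, and 0 passed with miR-200a against the NC mimic by edgeR, with 0 at an unadjusted p under 0.05. With miR-200a plus ELK3 against miR-200a 2 rose and 2 fell, where 12.9% of all genes were called, but with only the compared groups fitted 0 rose and 1 fell. IGF2, the growth factor of the cluster, fell (15.8 and 9.58 to 3.32 and 4.23 CPM, -1.74, adjusted p = 0.0179), whereas PHLDA2, a placental growth restraint, rose (235 and 246 to 333 and 429 CPM, 0.66, adjusted p = 0.0215), as did TSSC4 (1.29, adjusted p = 0.0289). Against the NC mimic PHLDA2 (0.91) and TSSC4 (1.43) were called higher and no gene of the cluster was called lower. SLC22A18 (-1.29, adjusted p = 0.0666), IGF2 (-1.02, adjusted p = 0.121) and OSBPL5 (-0.58, adjusted p = 0.114) were lower without overlap but did not pass. KCNQ1OT1 was higher without overlap and did not pass either (0.55, adjusted p = 0.0582). With only the compared groups fitted 1 gene was called higher.

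Of 18 tested p53 targets other than CDKN1A, 1 rose and 3 fell in each comparison of the plasmid-labelled libraries, where 12.9% of all genes were called, and 0 passed with miR-200a alone (3 at an unadjusted p under 0.05). GDF15, a stress-induced cytokine, went from 325 and 276 CPM in the controls and 255 and 251 CPM with miR-200a to 33.4 and 32.2 CPM (-3.19, adjusted p = 6.87e-06, and -2.95, adjusted p = 1.44e-05). BBC3, which encodes the death factor PUMA, fell by 1.38 against miR-200a (adjusted p = 0.00107), and AEN, an apoptosis-enhancing nuclease, rose by 1.30 (adjusted p = 0.00378). CDKN1A, a p53 target too, did not pass in these comparisons, and its difference from GDF15 and BBC3 was not tested.

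With miR-200a against the NC mimic, edgeR called 0 genes of the lists for G1 kinases and cyclins, the RB family and E2F factors, and turnover, with 2 of 12, 1 of 13 and 1 of 19 at an unadjusted p under 0.05, beside 9.24% of all genes. DESeq2 and limma also called 0 genes of these lists and of those for DNA replication, the imprinted cluster and p53 targets. Without the filter on low counts, 1 gene of the G1 list and 1 of the RB and E2F list were called lower, and 1 of 7 luminal markers higher. When the plasmid-labelled libraries were left out of the fit, which then called 999 of all genes, each list had calls: 1 higher and 2 lower for G1, 0 and 2 for RB and E2F, 1 and 1 for turnover, 6 and 3 for the regulators, 0 and 1 for DNA replication, 1 and 1 for the imprinted cluster, 1 and 1 for the p53 targets, 0 and 1 for the claudin-low markers, and 3 and 0 for the luminal markers.

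Most of these calls in the plasmid-labelled libraries were lost when a library of the group compared with was left out. The reason was not tested. Of 21 calls of named genes with miR-200a plus ELK3 against miR-200a, 18 were lost without miR-200a replicate 1 and 18 without replicate 2, and the 3 kept were EGR1, GDF15 and BBC3. They were lost in 8 cases, CDKN2D among them, without either NC mimic library. Of 24 calls against the NC mimic, 19 were lost without NC mimic replicate 1, 20 without replicate 2, and 12 without either miR-200a library. CCND1, EGR1, GDF15 and BBC3 were kept throughout. Leaving out a plasmid-labelled library cost the call of TSSC4 in both comparisons (replicate 2) and of no other named gene.

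The genes whose values over the 6 libraries were most like those of CDKN1C were sought among the 12649 other tested genes, by the root mean square difference of log2 CPM centred on each gene's mean. The nearest were PLLP (0.132), TMEM173 (0.139), TNFRSF6B (0.144), IFIT1 (0.176) and CCL26 (0.185), beside a median of 0.628 over all genes. TMEM173, the STING adaptor of DNA sensing, was at 20.3 and 18.9 CPM in the NC mimic, 44.6 and 42.0 CPM under miR-200a, and 26.5 and 24.7 CPM with miR-200a plus ELK3. IFIT1, an interferon-stimulated gene, averaged 30.9 ± 2.61, 60.3 ± 4.29 and 33.2 ± 3.35 CPM (SD, n = 2 each). TNFRSF6B, a decoy receptor, was at 36.3 and 41.8 CPM, 79.3 and 77.2 CPM, and 46.2 and 34.3 CPM. Each was highest in both miR-200a libraries, as the choice of these genes fixes. CCL26 had 2 to 16 counts in a library, so that its likeness rests on few reads.

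**Figure D5:**
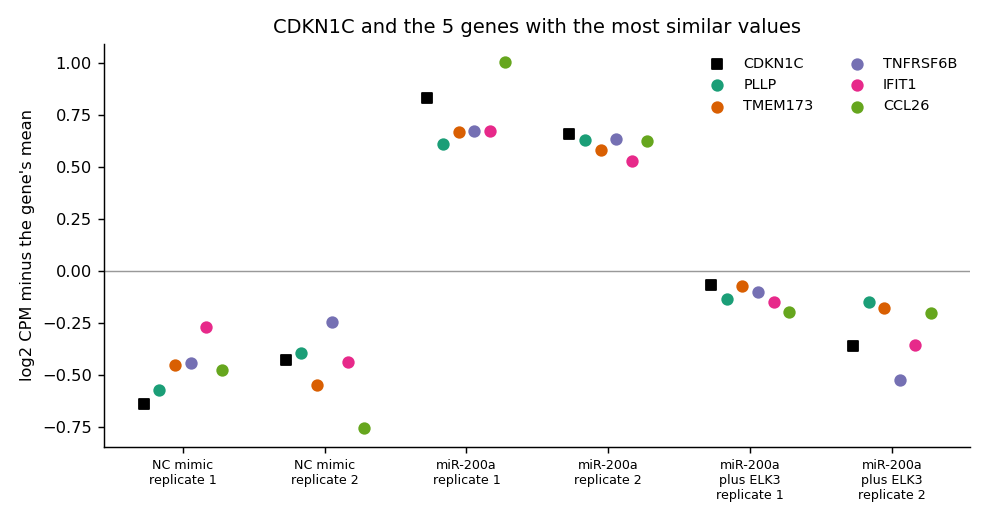
Log2 CPM minus the gene's own mean (y axis) for CDKN1C (squares) and the 5 genes nearest to it (circles) in the 6 libraries (x axis). All 6 genes are above their mean in the miR-200a libraries and below it in the other 4 libraries.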

How the data were processed

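The authors deposited raw read counts per gene symbol for each library, without normalization. Per the labels, the libraries were made with a QuantSeq kit, and the submitters' processing notes name Bowtie2, edgeR and hg19. The paper names ExDEGA. The counter, its strand setting and the annotation are not given in the sources used here. Positions and 3′UTRs come from GENCODE 29 on GRCh38 by gene symbol, since the deposited counts carry no coordinates. Counts of the 286 symbols on several lines were summed; all 9 members were on 1 line.

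Groups were taken from the labels. The test was edgeR's (version 4.0.16, R 4.3.3) quasi-likelihood test: library sizes were scaled by TMM, low genes were removed by filterByExpr (minimum count 10), all 6 libraries entered a model with 3 residual degrees of freedom, and p-values were adjusted by Benjamini-Hochberg over 12650 genes, at a threshold of 0.05. SE is the log2 fold change divided by the root of its F statistic. Alternatives were DESeq2 1.42.0, its size factors in edgeR, upper-quartile normalization, no filter, 10 counts in every library, only the compared groups, a replicate block, limma 3.58.1 on quantile-normalized log2(count + 1), and each library left out. A crossed replicate block was added after seeing the data. The fit was tried on simulated counts with 200 genes changed in the plasmid-labelled group, compared with miR-200a. It recovered 60% of the 2-fold and 88% of the 4-fold changes, and 7.5% of its 160 calls were false. A change of 2-fold or less can therefore fail to pass.

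The members and gene lists were chosen with earlier results of these data known. Named are ELK3, all members, the 5 genes nearest to CDKN1C, and from each list up to 3 genes with the smallest p among those called without overlap between groups; CDK2, CDK4, RB1, VIM, ESR1 and other genes named without a call, and ORAOV1, which overlaps CCND1, were added after their values were seen.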

Additional observations from a re-analysis of the deposited data

How the results depend on the processing

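The count of genes changed with miR-200a against the NC mimic, 34, was 88 with DESeq2, 230 without the filter, 999 with only the compared groups, and 0 to 1001 with a library left out, the highest counts coming without a plasmid-labelled library and 0 without either NC mimic library. For miR-200a plus ELK3 against miR-200a this count was 1637, and 2490 without the filter, 579 with only the compared groups, and 39 to 4730 with a library left out. Against the NC mimic it was 1629, and 2525, 598 and 90 to 4721 under the same settings. The highest of these came without replicate 1 of the plasmid-labelled libraries, the lowest without a miR-200a library or an NC mimic library, respectively. Upper-quartile normalization moved the share of higher calls from 54.3% to 41.4% against miR-200a and from 53.8% to 42.9% against the NC mimic. The cause was not tested.

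Members changed, CDKN1C left out, were 0, 2 and 2 in the 3 comparisons. They were 4 and 4 in the last 2 without the filter, 1 in each comparison with only the compared groups, and 0 to 1, 0 to 4 and 1 to 5 with a library left out. CDKN2D and CCND1 gave the lost calls, CDKN1B, CCND3, CDKN1A and (without the filter) CCND2 the added ones with the plasmid, and CCND1 the added one with miR-200a.

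The replicate number was not stated to pair libraries, and the correlations of same-numbered deviations were -0.003, -0.036 and -0.108. With the replicate block 13, 1157 and 1170 genes changed, and members changed fell to 1 against the NC mimic. With the numbers crossed in the plasmid-labelled libraries, which was chosen after seeing the data, 22 genes changed with miR-200a against the NC mimic and 1644 with miR-200a plus ELK3 against miR-200a.

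Fold changes near 0 changed sign in 10 instances, none of them called in either setting: CDKN1A against the NC mimic with the plasmid (-0.0064 with upper-quartile normalization, -0.031 with limma) and otherwise with a library left out, which gave a range of -0.34 to 0.14 for CDKN1A with the plasmid against miR-200a, -0.21 to 0.27 for CDKN1A against the NC mimic, -0.20 to 0.014 for CDKN2C against the NC mimic, and, with miR-200a against the NC mimic, -0.082 to 0.090 for CDKN1B, -0.018 to 0.19 for CDKN2D and -0.20 to 0.12 for CCND3. Over the fold changes of the named genes, 793 values under the alternatives kept direction and side of the threshold, 156 lost a call and 16 gained it. CDKN2B, with 0 counts in every library, and CCND2, with too few counts to be tested, could not be compared. The reason for the absence of CDKN2B counts was not tested.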
